A study of Saccharomyces cerevisiae with 6 samples.

Results

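Yeast makes arginine from glutamate, and the 9 genes described here encode 7 enzymes or enzyme subunits of that route and 2 proteins that regulate it. The genes are ARG2, ARG8, ARG7, CPA1, ARG3, ARG1 and ARG4, in pathway order, and the regulators ARG80 and ARG81. They were picked by gene symbol from 5449 budding yeast genes with a probe set in the deposited array table. All 9 were measured. The rule takes the brightest probe set of a gene over the 6 arrays, but each of the 9 has 1 annotated probe set, so brightness decided nothing. The list was drawn up with the rises of ARG1, ARG3 and ARG4 in these data already known, so counts over it are descriptions.

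Arrays were hybridised with biotin-labelled cRNA from 3 samples of a Saccharomyces cerevisiae strain with wild-type histone H2B (PY014) and 3 of a strain with the H2B substitution K111A (WY317), alanine for a lysine. Both strains grew in YPD, a rich glucose medium, up to mid-log phase. The study asks which mRNA levels the substitution affects. Each genotype is 1 strain, and the labels give neither its other alleles nor whether the numbered samples were separate cultures, so p-values reflect the spread among these samples alone, part or all of which may be technical.

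In budding yeast the steps up to ornithine run in the mitochondrion on acetylated intermediates, and cytosolic enzymes then turn ornithine and carbamoyl phosphate into arginine. A complex of Arg80, Arg81, Arg82 and the MADS-box factor Mcm1 represses arginine synthesis genes when arginine is plentiful. The activator Gcn4, itself controlled at translation, raises transcription of many amino acid synthesis genes when amino acids run short.

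Mean intensity over all probe sets ran from 146.4 to 148.2 across the 6 arrays, and the correlation between arrays of the same strain, over genes and on log2 values, was 0.9965 to 0.9984. The H2B gene HTB1 read 1280 ± 40.5 in wild type and 1204 ± 50.5 in K111A (SD, n = 3 each, adjusted p = 0.192), and the other H2B gene, HTB2, read 3.90 ± 0.17 and 3.73 ± 0.25, beside a background level of 3.7. A substitution need not alter mRNA level, so neither gene checks the labels. The 5 MATa cell markers STE2, BAR1, MFA1, MFA2 and STE6 had wild-type means of 332 to 871 and none passed the test. Of 4 MATalpha markers only STE3 passed, falling from 21.4 ± 0.46 to 11.7 ± 1.47 (adjusted p = 0.00383). The other 3 did not pass and had slightly higher means in K111A. MF(ALPHA)1 went from 3.07 to 3.97, MF(ALPHA)2 from 9.13 to 9.80 and SAG1 from 61.0 to 61.6. The 17 ribosomal RNA control probe sets also differed between the strains. Their mean log2(intensity + 32) was 6.43 ± 0.12 in wild type and 6.69 ± 0.09 in K111A (SD, n = 3 each). The added 32 makes this difference smaller than it is on intensity alone. The part of these probe sets in the results below was not tested.

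Part of the route had higher mRNA in the mutant. ARG7, ARG1, ARG3 and ARG4 rose by 22.6% to 32.8% in mean intensity, while ARG2, ARG8 and CPA1 were 4.11% to 12.0% higher and did not pass the test. Neither regulator passed. So 4 of 9 genes rose and 0 fell by limma's moderated test at an adjusted p under 0.05, where 6.92% of all genes tested rose and 7.62% fell. At an unadjusted p under 0.05, 6 of the 9 were higher and 1 lower, where 15.5% of all genes were higher and 16.3% lower. The median log2 change was 0.28 over the 7 synthesis genes, against -0.00048 over all genes.

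**Figure D1:**
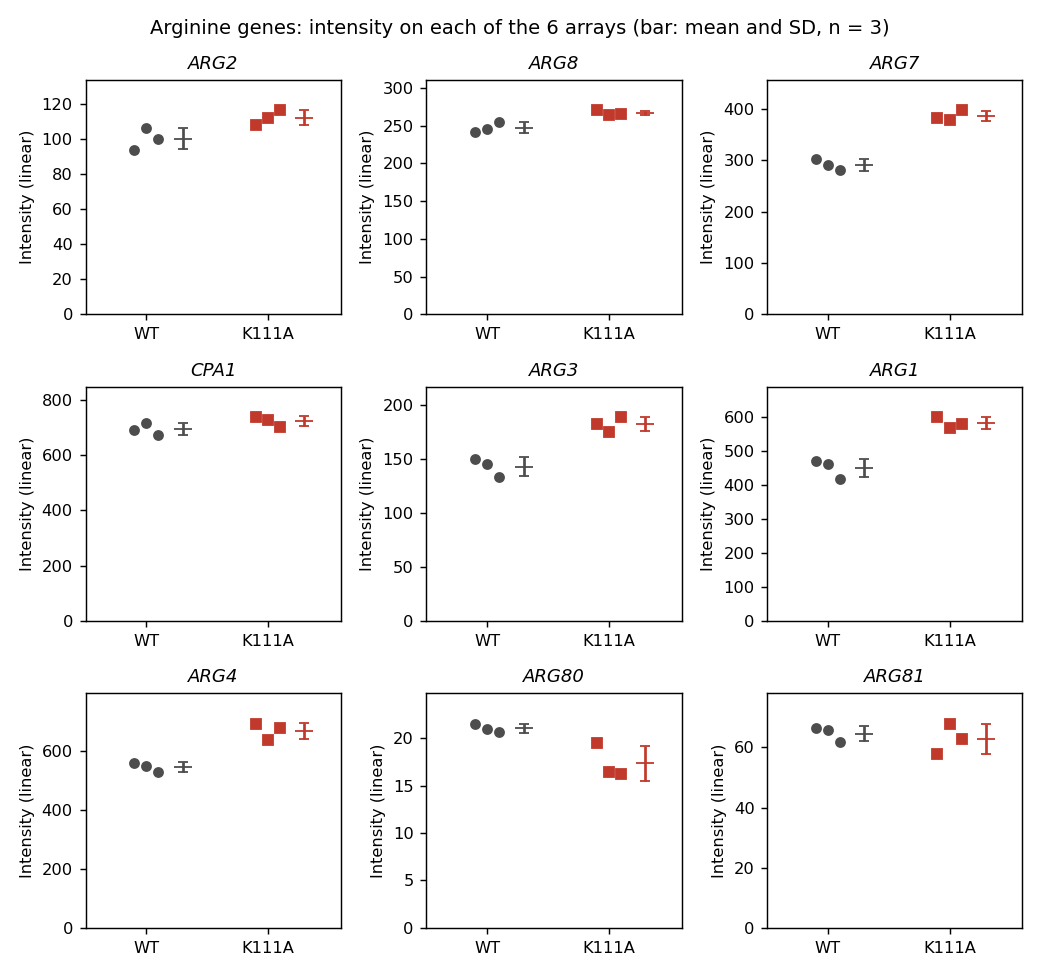
Linear intensity (vertical axis, from 0) of each of the 9 genes on each array, with wild type as grey circles and K111A as red squares, and the mean with its SD beside each group (n = 3). The groups stand clear of each other for ARG7, ARG3, ARG1 and ARG4, lie close for ARG2 and ARG8, and overlap for CPA1 and ARG81.

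The mitochondrial steps did not change alike. ARG2 (YJL071W) encodes acetylglutamate synthase, which adds the acetyl group that opens the route. It read 94.1, 106.3 and 100.3 on wild-type arrays 1, 2 and 3, and 108.1, 112.3 and 116.5 on mutant arrays 1, 2 and 3. The lowest mutant array stood only just above the highest wild-type array. The log2 change was 0.13 with a 95% interval of 0.03 to 0.22 (adjusted p = 0.0823), so it did not pass.

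ARG8 (YOL140W), acetylornithine aminotransferase, makes acetylornithine. It read 242.1, 245.3 and 255.1 in wild type and 270.3, 264.3 and 265.8 in K111A. The groups did not overlap, yet the log2 change of 0.10 (95% interval 0.02 to 0.17, adjusted p = 0.0898) stayed short of the threshold.

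ARG7 (YMR062C), ornithine acetyltransferase, releases ornithine and hands the acetyl group back to glutamate. It read 301.8, 290.7 and 280.3 in wild type and 383.3, 378.0 and 397.5 in K111A. Every mutant array lay well above every wild-type array. ARG7 had the largest change of the 9 genes, from 291 ± 10.8 to 386 ± 10.1 (SD, n = 3 each), a 1.33-fold rise and a log2 change of 0.37 ± 0.04 (SE, adjusted p = 0.00163). Among all 5449 genes it ranked 16 from the largest rise on that scale.

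The ratios of ARG7 to the genes beside it in the route were higher on every mutant array than on any wild-type array. Ratios here and below are of intensity + 32, as in the fit. The log2 ratio of ARG7 to ARG8 within an array went from 0.21 ± 0.08 in wild type to 0.49 ± 0.04 in the mutant (SD, n = 3 each), and that of ARG7 to ARG2 from 1.29 ± 0.10 to 1.54 ± 0.03. ORT1, the carrier that exports ornithine from the mitochondrion, was not among the 9. It read 115.2, 103.6 and 107.6 in wild type and 124.6, 113.2 and 124.0 in K111A, with overlap and a log2 change of 0.12 (adjusted p = 0.116). The ratio of ARG7 to ORT1 went from 1.20 ± 0.05 to 1.46 ± 0.05. The level of one probe set cannot be set against that of another, so these ratios show only unequal change. The gene for the bifunctional kinase and reductase step between ARG2 and ARG8 was not analysed here.

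**Figure D2:**
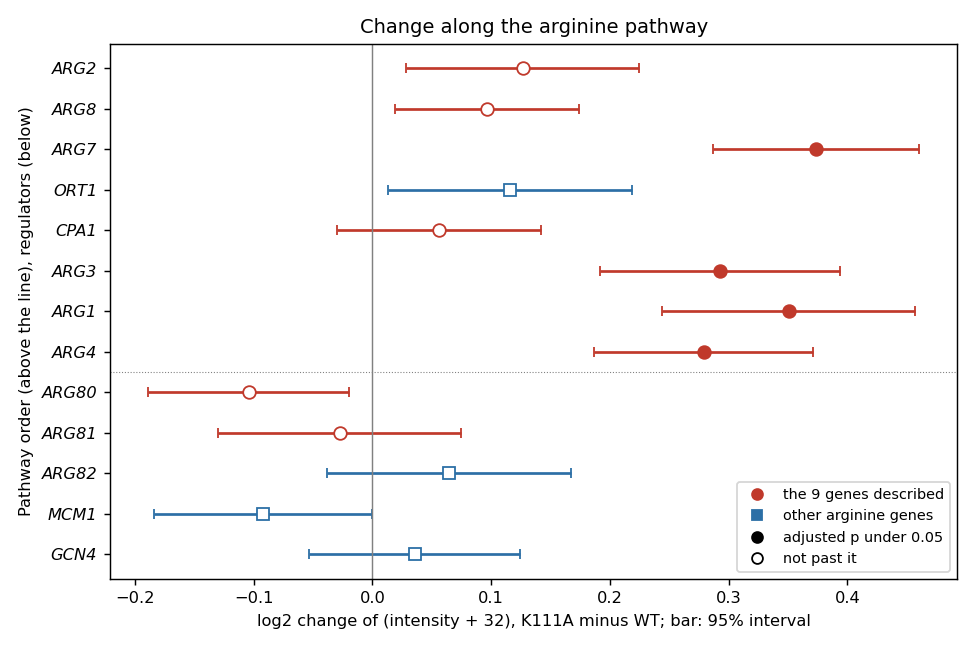
Change in log2(intensity + 32), K111A minus wild type (horizontal axis), with its 95% interval, in pathway order above the dotted line and for regulators below it; circles are the 9 genes, squares other arginine genes, filled symbols those past an adjusted p of 0.05. The filled symbols are ARG7, ARG3, ARG1 and ARG4, between 0.28 and 0.37, and every regulator has an open symbol.

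In the cytosol, CPA1 differed from the steps that follow it. CPA1 (YOR303W) encodes the small subunit of the carbamoyl phosphate synthetase that serves arginine. It read 690.2, 716.9 and 671.9 in wild type and 736.4, 727.2 and 700.9 in K111A. The groups overlapped. The log2 change was 0.06, with an interval of -0.03 to 0.14 (adjusted p = 0.347), which does not reach the changes of ARG3, ARG1 or ARG4.

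The CPA1 transcript carries a short leader reading frame, YOR302W, whose peptide stalls ribosomes when arginine is plentiful. It has a probe set of its own, picked out here after its value was seen. That set read 259.5, 232.5 and 219.7 in wild type and 222.1, 245.2 and 226.8 in K111A. The strains were intermixed, with a log2 change of -0.03 (adjusted p = 0.760).

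ARG3 (YJL088W), ornithine carbamoyltransferase, joins carbamoyl phosphate to ornithine. It read 150.1, 146.0 and 133.9 in wild type and 183.0, 175.8 and 189.2 in K111A. No mutant array came near the wild-type range. The rise was 1.27-fold, a log2 change of 0.29 ± 0.04 (SE, adjusted p = 0.00662). The log2 ratio of ARG3 to CPA1 (intensity + 32) went from -2.05 ± 0.05 to -1.81 ± 0.07 (SD, n = 3 each), without overlap.

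ARG1 (YOL058W), argininosuccinate synthetase, adds aspartate to citrulline. It read 470.2, 461.3 and 418.6 in wild type and 599.7, 566.8 and 579.6 in K111A. Wild-type array 3 was low, and the lowest mutant array still lay above the highest wild-type one. Mean intensity went from 450.0 ± 27.6 to 582 ± 16.6 (SD, n = 3 each), 1.29-fold, with a log2 change of 0.35 ± 0.05 (SE, adjusted p = 0.0043).

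ARG4 (YHR018C), argininosuccinate lyase, catalyses the last step and releases arginine. It read 559.4, 550.6 and 529.4 in wild type and 692.8, 639.7 and 677.6 in K111A. Here too the strains were well separated. The rise was 1.23-fold, a log2 change of 0.28 ± 0.04 (SE, adjusted p = 0.0056).

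The 4 genes that rose had log2 changes between 0.28 and 0.37. They ranked 16 (ARG7), 26 (ARG1), 52 (ARG3) and 62 (ARG4) among all genes, and their 95% intervals overlapped each other. The median fold among the 377 genes that rose was 1.18. The log2 ratio of ARG7 to ARG1 (intensity + 32) was -0.58 ± 0.04 in wild type and -0.55 ± 0.05 in K111A, and that of ARG1 to ARG3 on the same scale was 1.46 ± 0.02 and 1.52 ± 0.04 (SD, n = 3 each), both with overlap between the strains. The log2 ratio of ARG1 to ARG4 on the same scale was -0.26 ± 0.05 and -0.19 ± 0.02, without overlap. Without overlap, 6 of the 9 genes were higher in the mutant and 1 lower, where 18.2% and 18.6% of all genes were.

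**Figure D3:**
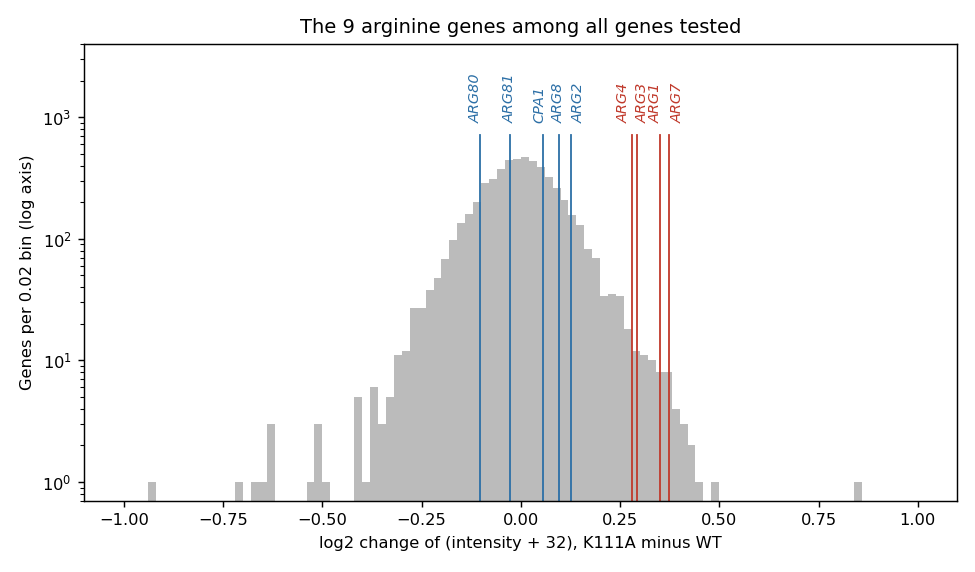
Distribution of the log2 change of (intensity + 32), K111A minus wild type, over the 5449 genes tested (bars, genes per bin on a log axis), with the 9 arginine genes as vertical lines, red for those past an adjusted p of 0.05. The 4 red lines, from 0.28 to 0.37, lie in the right tail, and the other 5 lie between -0.10 and 0.13.

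The genes that rose also varied together within a strain. In wild type, ARG7, ARG1, ARG3 and ARG4 were each lowest on array 3, where their mean log2 value was -0.066 from the wild-type mean, against 0.049 and 0.017 on arrays 1 and 2. In the mutant their mean was lowest on array 2, at 0.28, against 0.344 and 0.347 on arrays 1 and 3. After removing the strain means, the correlation over the 6 arrays had a median of 0.82 over the 6 pairs of these genes, with a range of 0.68 to 0.95. Over all 21 pairs of the 7 synthesis genes the median was 0.05 and the range -0.72 to 0.95. CPA1, ARG80 and ARG81 were also lowest on wild-type array 3 among the wild-type arrays. Such correlations were not computed outside the synthesis genes, so the pattern cannot be called particular to these 4. The points share their libraries, and these correlations are descriptions. Without wild-type array 3 the log2 changes were 0.35 for ARG7, 0.30 for ARG1, 0.25 for ARG3 and 0.26 for ARG4, each still past the threshold.

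**Figure D4:**
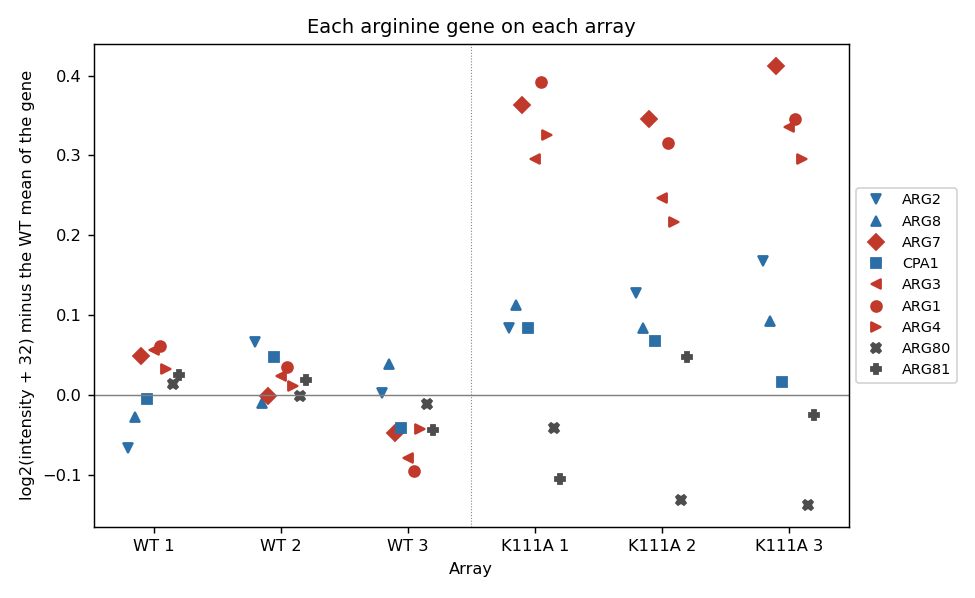
Difference of log2(intensity + 32) from the gene's wild-type mean (vertical axis) on each of the 6 arrays (horizontal axis), in red for the genes that rose, blue for the other synthesis genes and grey for the regulators. On each mutant array the 4 red symbols stand above the rest. On wild-type array 3 the same 4 lie below 0, as do CPA1, ARG80 and ARG81.

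The regulators did not rise with the enzymes. ARG80 (YMR042W), a MADS-box protein of the repressor complex, had a dim probe set, at 21.5, 21.0 and 20.6 in wild type and 19.5, 16.4 and 16.2 in K111A. All values lay above the background level of 3.7. Every mutant array was below every wild-type array, with means 1.21-fold lower. The log2 change was -0.10 with an interval of -0.19 to -0.02 (adjusted p = 0.0941), and did not pass. The added 32 shrinks the change of so dim a gene, and with 1 added it was -0.27 (adjusted p = 0.0663), also not past the threshold.

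ARG81 (YML099C) encodes the zinc-cluster protein that senses arginine in the complex. It read 66.3, 65.8 and 61.7 in wild type and 57.8, 67.8 and 62.9 in K111A. Mutant arrays held both the lowest and the highest value. The log2 change was -0.03, with an interval of -0.13 to 0.07 (adjusted p = 0.715).

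Of the 3 other regulators, 0 passed in either direction by limma, with 1 lower at an unadjusted p under 0.05. Over all genes 15.5% were higher and 16.3% lower at that unadjusted p. MCM1, the DNA-binding partner shared with the cell-type and cell-cycle programmes, was 290.2 ± 11.4 in wild type and 270.3 ± 9.58 in K111A (adjusted p = 0.157). ARG82, an inositol polyphosphate kinase that stabilises Arg80 and Mcm1, was 39.6 ± 2.58 and 42.9 ± 3.61 (adjusted p = 0.362). GCN4 read 1225.2, 1298.9 and 1239.6 in wild type and 1332.8, 1277.3 and 1250.3 in K111A (adjusted p = 0.576), with overlap. Its mRNA level does not report the amount of Gcn4 protein, which depends on translation. The log2 ratio of ARG1 to GCN4 mRNA (intensity + 32) went from -1.42 ± 0.09 to -1.10 ± 0.03 (SD, n = 3 each), without overlap.

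Breakdown and uptake of arginine gave 1 rise each, where 6.92% of all genes rose and 7.62% fell. Of 6 genes of arginine and proline breakdown 1 rose and 0 fell in limma's test, with 1 higher and 1 lower at an unadjusted p under 0.05, near the 15.5% and 16.3% of all genes. The arginase gene CAR1 was 529 ± 5.62 in wild type and 535.0 ± 23.1 in K111A (SD, n = 3 each, adjusted p = 0.842). The ornithine aminotransferase gene CAR2 was 114 ± 2.11 and 103 ± 4.61, without overlap (adjusted p = 0.0683). The gene that rose was PUT3, the activator of proline use, from 76.3 ± 2.43 to 90.6 ± 1.69 (adjusted p = 0.014), a call lost without mutant array 3 (0.062). The proline enzymes PUT1, PUT2 and PRO3 had adjusted p of 0.25, 0.683 and 0.619.

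Among 8 measured transport genes, 1 rose and 0 fell, and 1 was higher and 0 were lower at an unadjusted p under 0.05. Over all genes 6.92% rose and 7.62% fell, and 15.5% were higher and 16.3% lower at that unadjusted p. RTC2, of a family of vacuolar transporters of cationic amino acids, rose from 25.1 ± 1.56 to 35.1 ± 4.13 (SD, n = 3 each, adjusted p = 0.018), a call that needed mutant arrays 1 and 3 (up to 0.062 without one of them). The arginine permease gene CAN1 was 214 ± 6.93 and 207 ± 5.55 (adjusted p = 0.448), and its relative ALP1 13.8 ± 0.46 and 11.7 ± 0.90 (adjusted p = 0.200). GAP1, the general amino acid permease, read 590.2, 557.5 and 471.9 in wild type and 589.6, 597.9 and 609.6 in K111A (adjusted p = 0.180), so wild-type array 3 was again lowest. The vacuolar transporter genes VBA1, VBA2, VBA3 and YPQ1 had adjusted p of 0.428, 0.223, 0.443 and 0.891. The VBA3 probe set is of a kind that can read related sequences as well.

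Around the pathway, the 5 genes that make or use glutamate and glutamine gave 1 fall and 0 rises. At an unadjusted p under 0.05, 1 was higher and 1 lower. The all-gene shares were 7.62% fallen and 6.92% risen, and 15.5% higher and 16.3% lower at that unadjusted p. GDH2, the NAD-dependent glutamate dehydrogenase that breaks glutamate down, fell from 284 ± 10.2 to 253 ± 2.97 (SD, n = 3 each, adjusted p = 0.0301). That call was lost without wild-type array 1 or any 1 of the mutant arrays, with adjusted p up to 0.103. The gene that was higher was GDH1, another glutamate dehydrogenase gene, named after its value was seen. It went from 1052 ± 91.1 to 1204 ± 17.6 without overlap, a log2 change of 0.19 that did not pass (adjusted p = 0.0551). GDH1 did pass without wild-type array 2 (0.0402) and with the alternative variance prior. The 5 genes of polyamine synthesis, which draws on ornithine, and the 10 of pyrimidine synthesis, which shares carbamoyl phosphate, gave 0 calls in limma and 0 at an unadjusted p under 0.05. Their log2 changes ran from -0.04 to 0.0045 and from -0.09 to 0.08.

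Genes that control GCN4 translation or Gcn4 turnover moved both ways. Of 15 measured, 2 rose and 3 fell, where 6.92% of all genes rose and 7.62% fell. At an unadjusted p under 0.05, 4 of the 15 were higher and 5 lower, where 15.5% and 16.3% of all genes were. GCN2, the kinase that senses uncharged tRNA, rose from 185 ± 9.14 to 224 ± 9.32 (SD, n = 3 each, adjusted p = 0.0125), a call kept whichever array was left out. Genes for subunits of the translation initiation factors eIF2B and eIF2 went both ways. GCN3 fell from 466 ± 26.3 to 406 ± 9.84, GCD1 from 420.4 ± 2.33 to 378 ± 16.6 and GCD11 from 895 ± 20.1 to 812 ± 24.5. Their adjusted p of 0.0286, 0.0395 and 0.0423 rose to as much as 0.103, 0.137 and 0.145 without mutant array 3. The call of GCD11 was lost whichever array was left out, and those of GCN3 and GCD1 with 5 of the 6 arrays. The other gene that rose was GCD6, also of eIF2B and named after its value was seen, from 329 ± 5.25 to 359 ± 5.99 (adjusted p = 0.0469), a call lost whichever array was left out. The eIF2B genes GCD2 and GCD7 had log2 changes of 0.11 and -0.08 (adjusted p = 0.0797 and 0.144) and the eIF2 genes SUI2 and SUI3 -0.11 and -0.02 (0.0786 and 0.861). Leaving out any 1 of the 6 arrays left 1 rise and 0 or 1 falls in the list. Over all genes it left 91 to 271 of 377 rises and 122 to 294 of 415 falls.

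Of 45 measured Gcn4 targets outside arginine synthesis, 6 rose and 2 fell, with a median log2 change of 0.023. Over all genes 6.92% rose and 7.62% fell. At an unadjusted p under 0.05, 10 of the 45 were higher and 4 lower, where 15.5% and 16.3% of all genes were. LYS2, of lysine synthesis, rose 1.25-fold (adjusted p = 0.0032) and HIS5, of histidine synthesis, 1.23-fold (0.006). LYS21, a homocitrate synthase gene, rose 1.21-fold, but its call (0.0401) was lost without wild-type array 1 or any 1 mutant array, with adjusted p up to 0.124. The chorismate mutase gene ARO7 was 1.26-fold lower (adjusted p = 0.00884). Without mutant array 3 the list held 3 rises, while rises over all genes went from 377 to 91. The shares of the lists were not tested against each other.

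The genes whose pattern was most like that of the 7 synthesis genes were found by Pearson correlation over the 6 arrays with the mean standardized profile, among 5296 genes above background. ATP4, of the ATP synthase, stood at 0.998, followed by GPH1, glycogen phosphorylase, at 0.997, MET1, of sulfite reduction, at 0.996, the chromatin remodeler CHD1 at 0.996 and BMH2, a 14-3-3 protein, at 0.994. The profile itself correlated at 0.98 with ARG1, ARG4 and ARG7, 0.97 with ARG3, 0.86 with ARG8, 0.84 with ARG2 and 0.75 with CPA1. With 6 arrays in 2 groups, most of such a likeness is the difference between the strains. ATP4 went from 734 ± 6.95 to 780 ± 5.53 (SD, n = 3 each, adjusted p = 0.103), MET1 rose 1.27-fold and GPH1 1.52-fold. The calls of CHD1 and BMH2, at 1.13-fold each, were lost without mutant array 1 or 3, and that of CHD1 also without mutant array 2 (adjusted p up to 0.0688 and 0.0526).

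**Figure D5:**
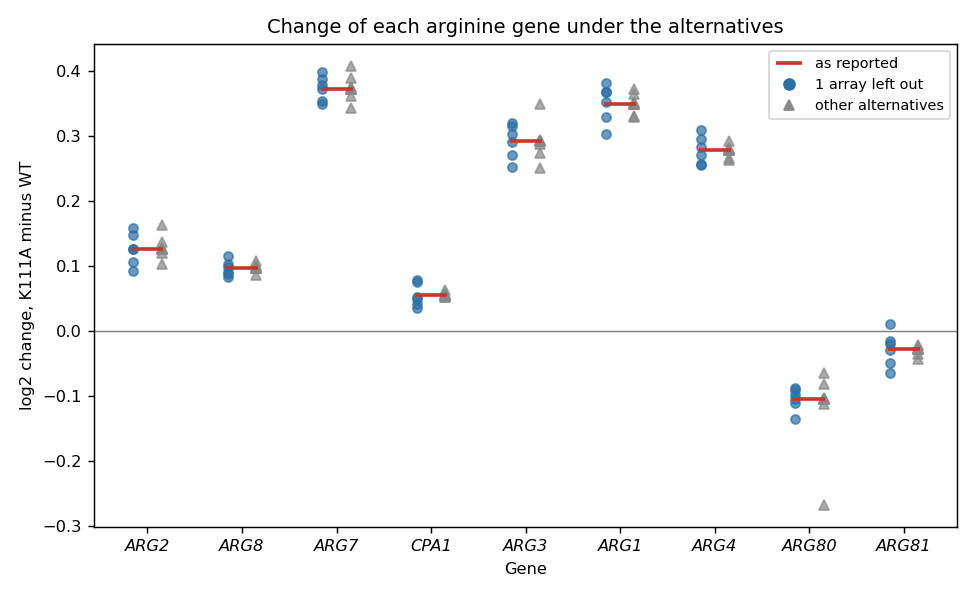
Log2 change, K111A minus wild type (vertical axis), of each of the 9 genes as reported (red bar), with 1 array left out (blue circles) and under the other alternatives (grey triangles). ARG7, ARG3, ARG1 and ARG4 stay between 0.25 and 0.41, ARG2, ARG8 and CPA1 stay between 0.03 and 0.16, and ARG80 spreads from -0.27 to -0.06.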

How the data were processed

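Single-channel arrays of 6 samples were used, 3 wild type and 3 H2B K111A, grouped by their titles. The authors deposited linear intensity values per probe set, already on a common scale. How probe sets were summarised and scaled is not stated in the labels or the file. Of 10928 probe sets, 5498 matched a gene of the RefSeq R64 table through the array annotation, and the brightest per gene was kept (47 genes had several). That table served for names and gene order only. Background was the 99th percentile of 1746 probe sets of another organism. Differences were fitted on log2(intensity + 32) with limma 3.58.1 in R 4.3.3 (lmFit, eBayes, two-sided, Benjamini-Hochberg over 5449 genes, threshold 0.05). The procedure was also run on simulated data with independent noise. That simulation held no variation shared by genes on an array, so it cannot show the error rate in these data. Folds are ratios of mean intensities. The number of arrays limits precision.

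Members and gene lists were chosen with earlier results of these data known. Named genes are the 9 members, all measured genes of the lists of arginine synthesis, regulation, breakdown and transport, up to 4 passing genes of the other lists by fold, HTB1, HTB2 and the 5 genes most alike over the arrays. Mating-type markers and chromosomal neighbours were added to these. One listed transporter name proved a synonym of RTC2. Figures used matplotlib 3.10.9.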

Additional observations from a re-analysis of the deposited data

How the results depend on the processing

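Under all 16 alternatives (scaling, pseudocount, a filter on dim genes, replicate block, variance prior, array weights, probe set choice, threshold and each array left out) the same 4 genes, ARG7, ARG1, ARG3 and ARG4, rose and 0 of the 9 fell. Their log2 changes ran from 0.25 to 0.41 and their adjusted p reached 0.0328 at most, for ARG3 without mutant array 3. No call of the 9 genes changed. The sign of ARG81 turned without mutant array 1, to 0.011 (adjusted p = 0.895), within a range of -0.065 to 0.011 with 1 array left out. Elsewhere, the calls of GDH2, GCN3, GCD1, GCD6, GCD11 and LYS21 were also lost with a pseudocount of 1 and with the replicate block. Those of CHD1 and BMH2 were lost with the block, those of GCD6 and GCD11 with centred array medians and that of GCD1 with array weights. All of these calls, and those of PUT3, RTC2 and GCN2, were lost at a threshold of 0.01. With a pseudocount of 1, 232 of all genes rose and 257 fell, with the replicate block 170 and 176, and with a threshold of 0.01, 70 and 89. Leaving out 1 array gave 91 to 271 rises and 122 to 294 falls, the fewest without mutant array 3. Same-numbered arrays deviated from their strain means with correlations of -0.23, -0.06 and -0.17 over genes. Differently numbered arrays were not compared, so these values cannot decide whether the replicate numbers pair the samples. Precision is limited by 3 arrays a strain.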

Other observations

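The genes next to the 9 on the chromosomes, listed after the data were seen, mostly gave no call. Of 18 neighbouring genes, all measured, 1 rose and 0 fell in limma's test, with 2 higher and 3 lower at an unadjusted p under 0.05. Their median log2 change was -0.042. The 18 include YOR302W, which lies on the CPA1 transcript itself, and MCM1, also counted above among the regulators. Over all genes 6.92% rose and 7.62% fell, and 15.5% were higher and 16.3% lower at an unadjusted p under 0.05, so the neighbours' counts lie near those shares. The one that rose was TSL1, of trehalose synthesis, beside ARG81, from 153 ± 11.4 to 193 ± 4.49 (SD, n = 3 each, adjusted p = 0.00845). RNA14 and RIM9, on either side of ARG7, had log2 changes of 0.11 and 0.04 (adjusted p = 0.0889 and 0.632). GPD2 and YOL057W, on either side of ARG1, had -0.11 and -0.06 (adjusted p = 0.290 and 0.286). YSC83 and DED81, beside ARG4, had -0.06 and -0.02 (adjusted p = 0.437 and 0.824), and SIP4 and TRL1, beside ARG3, had 0.01 and -0.21 (adjusted p = 0.847 and 0.179). The TRL1 difference passed without wild-type array 3 (adjusted p = 0.0247). ARG80 lies next to MCM1, and both were lower on average in the mutant without passing the test.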
